A study of Mus musculus with 10 samples.

Results

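Genes that hold calcium phosphate deposition back or promote it are described here, in brain RNA of Slc20a2-HO mice, a model of primary familial brain calcification. The 9 members were taken by name from the count table of 54532 genes: Enpp1, Ank, Abcc6, Alpl and Nt5e of pyrophosphate and adenosine metabolism, Spp1, Mgp and Sparc of the mineral-binding matrix, and Tnfrsf11b, the decoy receptor for RANKL. All 9 had enough counts to be among the 17665 genes tested. All 10 mice, placebo mice included, were homozygous for the Slc20a2 knockout (allele Slc20a2tm1a(EUCOMM)Wtsi, bred from heterozygous parents), and no wild-type library was used here. From the age of 1.5 months, 6 mice received the sphingosine-1-phosphate receptor modulator FTY720 at 0.5 mg/kg in dimethyl sulfoxide, injected into the abdomen, and 4 received dimethyl sulfoxide only (placebo). After 12 weeks the mice were perfused and the brain was divided into 2 equal parts, 1 for RNA and 1 for fixation, with no statement of the plane of the cut. The strain background and sex are not given in the labels.

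Mineral forms in soft tissue when phosphate and calcium precipitate faster than inhibitors can stop them. Inorganic pyrophosphate is the main small-molecule inhibitor: ENPP1 makes it from extracellular ATP, ANK and ABCC6 bring ATP or pyrophosphate out of cells, and tissue-nonspecific alkaline phosphatase (Alpl) breaks it down, while CD73 (Nt5e) turns the AMP left by ENPP1 into adenosine, which restrains alkaline phosphatase. Osteopontin (Spp1) and matrix Gla protein (Mgp) bind mineral or growth factors in the matrix and limit crystal growth, SPARC binds collagen and calcium, and osteoprotegerin (Tnfrsf11b) keeps RANKL from its receptor on osteoclasts.

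Both comparisons were made over the same mice. The first, FTY720 against placebo, is the one the study was designed for and asks whether expression in the brain moved with treatment. The second sets the libraries with the digit 3 in their name (such as F3-609 and P3-612) against those with the digit 1 (such as F1-622 and P1-623), a digit that the labels do not explain. Digit 3 held 3 FTY720 and 3 placebo mice, and digit 1 held 3 FTY720 mice and 1 placebo mouse.

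With FTY720 no member passed the test. With the digit, 3 of the 9 did, all higher in digit 3: Spp1 was 2.13-fold, Tnfrsf11b 1.89-fold and Enpp1 1.56-fold higher, each with treatment kept as a covariate (adjusted p at most 0.00818, from edgeR's quasi-likelihood test, adjusted by the Benjamini-Hochberg method over all genes tested). At an unadjusted p under 0.05 Alpl was lower, which makes 4 of 9 where 41.4% of all tested genes had such a p. The 3 adjusted calls stand against a background in which 28.4% of all tested genes passed in the digit comparison (13.9% of all tested genes higher and 14.4% lower), and 0% in the FTY720 comparison, where 2.61% had an unadjusted p under 0.05 against none of the members. That fit leaves out the digit, and with the digit as a term 2256 genes had an unadjusted p under 0.05, in place of 461, again without a member. DESeq2 gave no adjusted call for FTY720 either, and 550 genes with an unadjusted p under 0.05, again with no member. The treatment groups of every member overlapped, while those of 0.804% of the tested genes did not. The median log2 fold change of the 9 members was 0.30 for the digit against -0.01 over all tested genes, and -0.03 for FTY720 against -0.00.

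Totals lay between 14772745 and 18303981 counts per mouse, with a median of 16653895, and no pair of libraries was close enough to be copies of 1 library (smallest chi-square of 16.1 per degree of freedom in 45 pairs). The first principal component took 46.8% of the variance and set the digits apart. Markers of hindbrain regions separated them too. The 10 cerebellar markers summed to between 1487 and 1609 CPM (counts scaled to the library size) in digit 3 and to between 162 and 197 CPM in digit 1, with all 10 higher in digit 3 and Cbln3, Car8 and Zic1 the most abundant. Of the 6 hindbrain markers, 5 were tested and all 5 were higher in digit 3, led in level by Slc6a5. Of the 6 listed, 3 were at 0 in all 4 digit 1 mice, Hoxb5 and Hoxa5 among them. The 8 cortex and hippocampus markers summed to between 712 and 986 CPM in digit 3 and to between 1364 and 1419 CPM in digit 1, with Slc17a7, Wfs1 and Tbr1 the most abundant. The digit and the share of each brain region in the library therefore cannot be told apart for any member, and neither can fewer cells of a type and less RNA per cell.

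The targeted gene itself, Slc20a2 (ENSMUSG00000037656, chromosome 8 from 22476788 to 22569612 on the plus strand of GRCm38), encodes the phosphate transporter PiT-2. It held between 89 and 294 counts per mouse, a whole-gene count that the files do not divide by exon, and it shares exon bases with Smim19. Its level was 13.9 ± 1.85 CPM (SD, n = 6) in digit 3 and 8.25 ± 1.44 CPM (SD, n = 4) in digit 1. The ranges did not overlap, with a log2 difference of 0.73 (standard error 0.15, adjusted p = 0.00463 by edgeR's quasi-likelihood test). For FTY720 the log2 difference was -0.24 (standard error 0.25, adjusted p = 0.999918 by the same test), and in the digit 3 mice alone it was -0.00.

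Spp1 and Enpp1 are the members past the test for which a promoter sequence was at hand, so the 250 bases before their RefSeq start are shown. The RefSeq table for GRCm38.p6 held 8 such windows for 6 of the 9 members: Enpp1, Alpl, Ank, Spp1, Nt5e and Sparc. The first of the 2 Spp1 windows is chr5:104434861-104435110 on the plus strand and the Enpp1 window chr10:24712160-24712409 on the minus strand, both 5′ to 3′. Capitals mark letters searched for on both strands: the RUNX core TGTGGT (printed as ACCACA on its reverse), TATAAA, the GC box GGGCGG and the CCAAT box (printed as ATTGG on its reverse).

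Spp1: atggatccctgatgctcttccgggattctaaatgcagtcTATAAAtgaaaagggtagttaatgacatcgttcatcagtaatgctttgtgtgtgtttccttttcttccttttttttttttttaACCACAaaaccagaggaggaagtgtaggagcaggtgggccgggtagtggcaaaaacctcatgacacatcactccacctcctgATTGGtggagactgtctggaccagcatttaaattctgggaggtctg

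Enpp1: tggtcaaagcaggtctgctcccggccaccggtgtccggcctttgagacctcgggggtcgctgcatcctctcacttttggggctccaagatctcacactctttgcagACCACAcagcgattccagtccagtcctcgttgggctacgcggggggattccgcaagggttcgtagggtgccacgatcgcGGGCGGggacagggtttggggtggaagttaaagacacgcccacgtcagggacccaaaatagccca

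Both windows shown held the RUNX letters, at -128 in Spp1 and at -144 in Enpp1 counted back from the start to the first base of the match, which 14.0% of 32851 mouse promoter windows of the same length did. None of the other 6 windows of members held them, the second window of Spp1 (chr5:104435942-104436191) included, which had no match to any of the 4 motifs. The Spp1 window shown also had TATAAA at -211 and CCAAT at -46 (12.4% and 33.8% of all windows), and the Enpp1 window a GC box at -65 (32.7% of all windows). Each Spp1 window had 3 CpG and the Enpp1 window 17 CpG, against a median of 6 over all windows. A match of letters is a description of these windows and not a bound site.

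Enpp1 (ENSMUSG00000037370, chromosome 10 from 24637914 to 24712159, minus strand) encodes the enzyme that makes pyrophosphate. The 3 FTY720 mice of digit 3 were at 7.81, 9.48 and 6.75 CPM and the 3 placebo mice at 8.38, 10.8 and 9.75 CPM. In digit 1 the FTY720 mice were at 5.67, 5.07 and 5.64 CPM and the placebo mouse at 5.44 CPM. Every digit 3 mouse lay above every digit 1 mouse. The digits did not overlap, in either direction, in 14.2% of all tested genes. The log2 difference was 0.64 (standard error 0.15, 95% interval 0.32 to 0.97, adjusted p = 0.00818 by edgeR's quasi-likelihood test), and the two-sided exact permutation test over the 210 splits of the mice gave p = 0.00952. Within the 6 FTY720 mice the log2 difference was 0.56 and missed the threshold (adjusted p = 0.0719 by the same edgeR test), and it did so too without the placebo mouse P1-623 (0.55, adjusted p = 0.0619). In the FTY720 mice alone 17.9% of the genes tested passed.

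For FTY720 the Enpp1 groups overlapped, at 6.74 ± 1.66 CPM (SD, n = 6) against 8.59 ± 2.32 CPM (SD, n = 4) with placebo. The log2 difference was -0.35 (95% interval -0.84 to 0.13, adjusted p = 0.999918 by edgeR's quasi-likelihood test). With the digit as a term it was -0.18 (standard error 0.15), in the digit 3 mice alone -0.26 (standard error 0.18) and without P3-904 -0.22. Its unadjusted p fell under 0.05 when P1-623 (log2 difference -0.51) or F3-612 (-0.47) was left out, and under no other alternative, with no adjusted call in either.

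Ank (ENSMUSG00000022265, chromosome 15 from 27466677 to 27594909, plus strand) encodes the membrane protein that carries pyrophosphate or ATP outward. It was the steadiest member, with 209 to 233 CPM over the 10 mice. The digit 3 mice were at 224 ± 8.26 CPM (SD, n = 6) and the digit 1 mice at 224 ± 10.2 CPM (SD, n = 4). Both log2 differences were near 0, with narrow intervals of -0.17 to 0.16 for the digit and -0.21 to 0.15 for FTY720. Ank shares exon bases with the microRNA gene Mir7117 and overlaps Tiaf2, B230362B09Rik and Otulin outside its exons.

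Abcc6 (ENSMUSG00000030834, chromosome 7 from 45967555 to 46030302, minus strand), a transporter through which ATP leaves liver cells, was the least abundant member. It had only 6 to 32 counts per mouse, and at this depth the intervals were wide. The digit 3 mice were at 1.13, 1.16 and 0.359 CPM with FTY720 and at 1.90, 1.62 and 0.921 CPM with placebo. The digit 1 mice were at 0.922, 0.825 and 1.08 CPM with FTY720 and at 0.655 CPM with placebo. The digits overlapped, as did the treatments, and the lowest value of all was that of F3-908. The 95% interval of the log2 difference ran from -0.58 to 1.18 for the digit and from -1.30 to 0.34 for FTY720.

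Alpl (ENSMUSG00000028766, chromosome 4 from 137741733 to 137796384, minus strand), which encodes the phosphatase that removes pyrophosphate, had the most negative digit difference of the members. The digit 3 mice were at 6.50, 7.74 and 5.02 CPM with FTY720 and at 7.43, 6.18 and 7.91 CPM with placebo. The digit 1 mice were at 7.66, 7.66 and 8.45 CPM with FTY720 and at 9.70 CPM with placebo. Of the 6 digit 3 mice, 4 lay below every digit 1 mouse. The log2 difference was -0.35 (standard error 0.15, unadjusted p = 0.0343) and missed the threshold at an adjusted p of 0.0920 by edgeR's quasi-likelihood test, with an exact permutation p of 0.0667. For FTY720 it was -0.12, with a 95% interval of -0.51 to 0.27. Alkaline phosphatase in brain is found in endothelial cells among others, and the 10 endothelial markers summed to between 282 and 390 CPM in digit 3 and between 284 and 389 CPM in digit 1, with Kdr higher and Slc2a1 lower.

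Nt5e (ENSMUSG00000032420, chromosome 9 from 88327197 to 88372092, plus strand) encodes CD73, the ectoenzyme that makes adenosine. In digit 3 the FTY720 mice were at 10.6, 9.95 and 11.5 CPM and the placebo mice at 8.38, 8.20 and 7.53 CPM. In digit 1 the FTY720 mice were at 6.52, 7.60 and 8.03 CPM and the placebo mouse at 8.91 CPM. Within digit 3 all FTY720 mice lay above all placebo mice, and within digit 1 all 3 lay below the single placebo mouse.

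Nt5e was the only one of the 9 members whose treatment groups did not overlap within digit 3, where 12.9% of all tested genes did not. Its log2 difference there was 0.41 (standard error 0.15, unadjusted p = 0.0200), where 7.27% of genes had an unadjusted p under 0.05, and its adjusted p was 0.654 by edgeR's quasi-likelihood test. The exact permutation test of 3 against 3 gave p = 0.1, the smallest it can give. The treatment difference itself differed between the digits by a log2 value of 0.68 (standard error 0.26, unadjusted p = 0.0243), where 1.95% of genes had an unadjusted p under 0.05 for this term, with an adjusted p of 0.99994 by the same edgeR test. That term rests on P1-623 as the only placebo mouse of digit 1, which no alternative can leave out, and without P3-907 its unadjusted p was no longer under 0.05. Over all 10 mice the FTY720 difference of Nt5e was 0.13, with a 95% interval of -0.24 to 0.50.

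The summed levels of 7 of 19 lists (14 of markers and 5 of pathways, some sharing genes) did not overlap between the treatments in the same digit 3 mice, and no gene passed the adjusted threshold for FTY720. Of single tested genes 12.9% did not overlap there, and no such share was computed for sums of lists. A sum follows its few most abundant genes. The 10 oligodendrocyte markers, with Mbp and Mobp among the most abundant, summed to between 5792 and 5972 CPM with FTY720 and between 6688 and 7617 CPM with placebo. The 10 endothelial markers, led in level by Slc2a1, Flt1 and Slco1c1, summed to between 314 and 390 CPM with FTY720 and between 282 and 295 CPM with placebo. Of the regional lists, that of the striatum summed to 755 to 882 CPM with FTY720 against 945 to 1042 CPM with placebo, and that of cortex and hippocampus to 712 to 908 against 910 to 986 CPM, while the cerebellar and hindbrain sums overlapped. The leptomeningeal list was at 111 to 139 against 141 to 149 CPM. Of the pathway lists, that of pyrophosphate and adenosine, to which Nt5e itself belongs, was at 657 to 692 CPM with FTY720 against 703 to 721 CPM with placebo, and that of RANKL at 50.7 to 53.9 against 37.7 to 48.6 CPM. The part of any of these lists in the Nt5e values was not tested. For the digit, Nt5e had a log2 difference of 0.30 (95% interval -0.02 to 0.61, adjusted p = 0.149 by edgeR's quasi-likelihood test), which passed only without P1-623 (0.52, adjusted p = 0.0431).

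**Figure D1:**
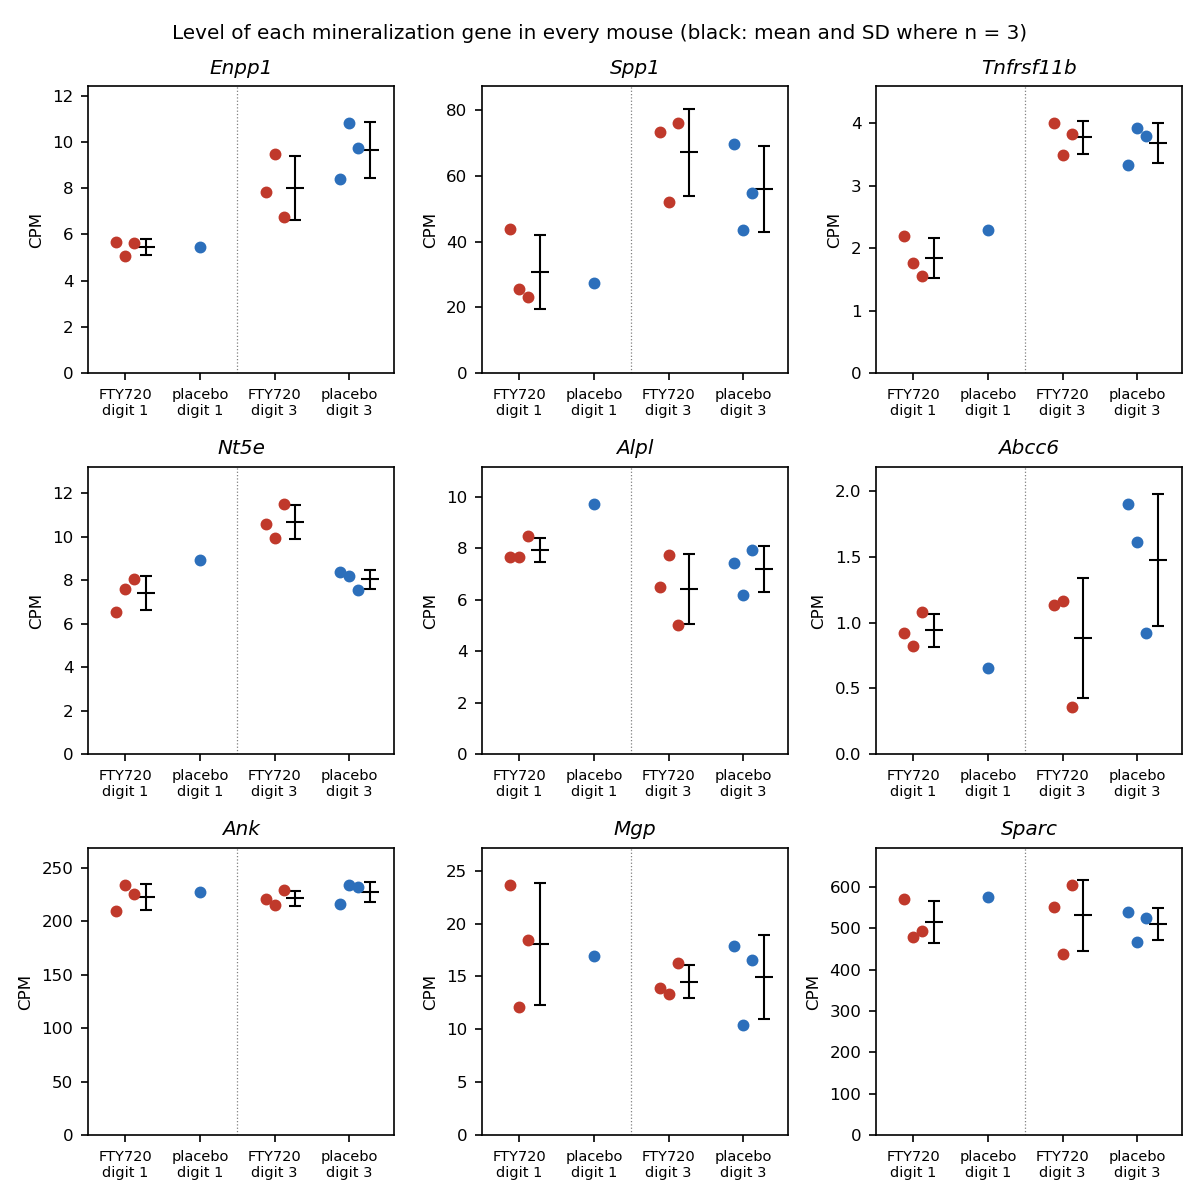
Level of each of the 9 genes in CPM (vertical axes, from 0) in every mouse, by digit and treatment, with red points for FTY720, blue points for placebo and black bars for the mean and SD of groups of 3. Enpp1, Spp1 and Tnfrsf11b sit higher in digit 3 under both treatments, and Nt5e in digit 3 is at 9.95 to 11.5 CPM with FTY720 against 7.53 to 8.38 CPM with placebo.

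Spp1 (ENSMUSG00000029304, chromosome 5 from 104435118 to 104441050, plus strand) encodes osteopontin, the phosphorylated matrix protein that coats mineral and binds integrins and CD44. In digit 3 the FTY720 mice were at 73.5, 52.1 and 76.0 CPM and the placebo mice at 69.7, 43.5 and 54.8 CPM. In digit 1 the FTY720 mice were at 43.8, 25.7 and 23.1 CPM and the placebo mouse at 27.5 CPM. Of the 6 digit 3 mice, 5 lay above all of digit 1, and the exception, P3-904, lay just under F1-622.

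The log2 difference of Spp1 between the digits was 1.09 (standard error 0.20, 95% interval 0.66 to 1.52, adjusted p = 0.00223 by edgeR's quasi-likelihood test), the largest of the 9 members, and the exact permutation p was 0.0190. Within the FTY720 mice alone it was 1.13 (adjusted p = 0.00738 by the same test). For FTY720 against placebo, 49.0 ± 22.7 CPM (SD, n = 6) stood beside 48.9 ± 17.9 CPM (SD, n = 4), and the log2 difference of 0.00 had a wide 95% interval of -0.75 to 0.76. In the digit 3 mice alone it was 0.27 with a standard error of 0.20. Spp1 shares exon bases with Gm42793 on the same strand, so its count is uncertain to that extent.

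Osteopontin is a product of activated microglia in many brain disorders. Of the 10 microglial markers, all had a log2 fold change below 0 in digit 3, 8 of them past the test, with a median log2 difference of -0.62. They summed to between 270 and 398 CPM in digit 3 and between 399 and 520 CPM in digit 1, with Csf1r and C1qb among the most abundant and no marker at 0. The 8 activated microglia markers, led by Axl, Lpl and Cd68, summed to between 85.0 and 98.4 CPM in digit 3 and between 119 and 136 CPM in digit 1, with 3 lower and none higher past the test. Neither list's range overlapped between the digits, and the part of microglia in the Spp1 values was not tested.

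**Figure D2:**
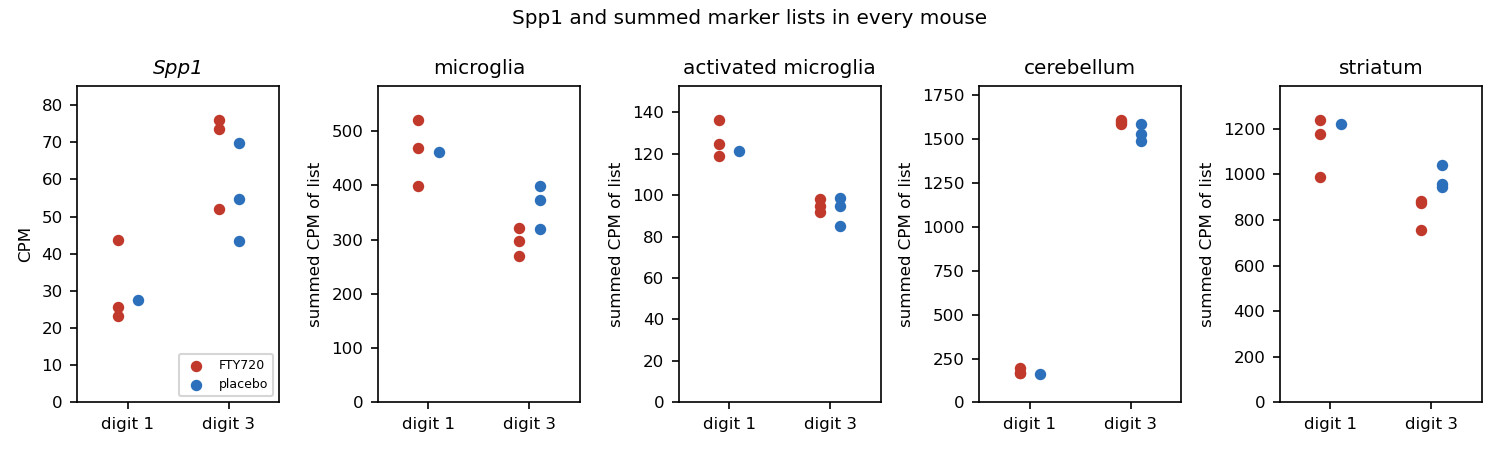
Spp1 in CPM and the summed CPM of 4 marker lists (vertical axes, each from 0) in every mouse by digit, with red points for FTY720 and blue points for placebo. Spp1 and the cerebellar list are higher in digit 3, while the microglia, activated microglia and striatum lists are lower. Spp1 and the striatum list overlap in part, and the cerebellar list differs by the widest gap (1487 to 1609 against 162 to 197 CPM).

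Mgp (ENSMUSG00000030218, chromosome 6 from 136872435 to 136875823, minus strand) encodes the vitamin K-dependent inhibitor of vessel wall mineralization. Over the 6 digit 3 mice it ran from 10.4 through a median of 15.1 to 17.9 CPM, and the digit 1 mice were at 23.6, 12.1, 18.5 and 16.9 CPM. The ranges overlapped, and F1-622 was the highest mouse of all. The log2 difference was -0.27 for the digit (95% interval -0.69 to 0.15, adjusted p = 0.315 by edgeR's quasi-likelihood test) and 0.08 for FTY720 (95% interval -0.37 to 0.53). The digit value was -0.11 without F1-622 and -0.39 without F1-624.

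Sparc (ENSMUSG00000018593, chromosome 11 from 55394500 to 55423183, minus strand), the most abundant member, ran from 438 through a median of 531 to 603 CPM in digit 3, and the digit 1 mice were at 572, 478, 494 and 576 CPM. The ranges overlapped almost wholly. The log2 difference was -0.03 for the digit (95% interval -0.26 to 0.20) and -0.01 for FTY720 (95% interval -0.25 to 0.23).

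Tnfrsf11b (ENSMUSG00000063727, chromosome 15 from 54250619 to 54278484, minus strand) encodes osteoprotegerin, the soluble decoy that binds RANKL and TRAIL. In digit 3 the FTY720 mice were at 3.99, 3.49 and 3.82 CPM and the placebo mice at 3.33, 3.93 and 3.79 CPM. In digit 1 the FTY720 mice were at 2.20, 1.77 and 1.56 CPM and the placebo mouse at 2.29 CPM. These values rest on 26 to 70 counts per mouse, and yet the 2 digits did not overlap, with little spread inside digit 3 (SD 0.261 CPM).

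The log2 difference of Tnfrsf11b was 0.92 (standard error 0.18, 95% interval 0.52 to 1.32, adjusted p = 0.00402 by edgeR's quasi-likelihood test), with an exact permutation p of 0.00952, the smallest that the 210 splits can give. Within the FTY720 mice it was 1.04 (adjusted p = 0.0215 by the same test). For FTY720 it was -0.25 over all mice (95% interval -0.90 to 0.40) and 0.04 in the digit 3 mice alone.

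**Figure D3:**
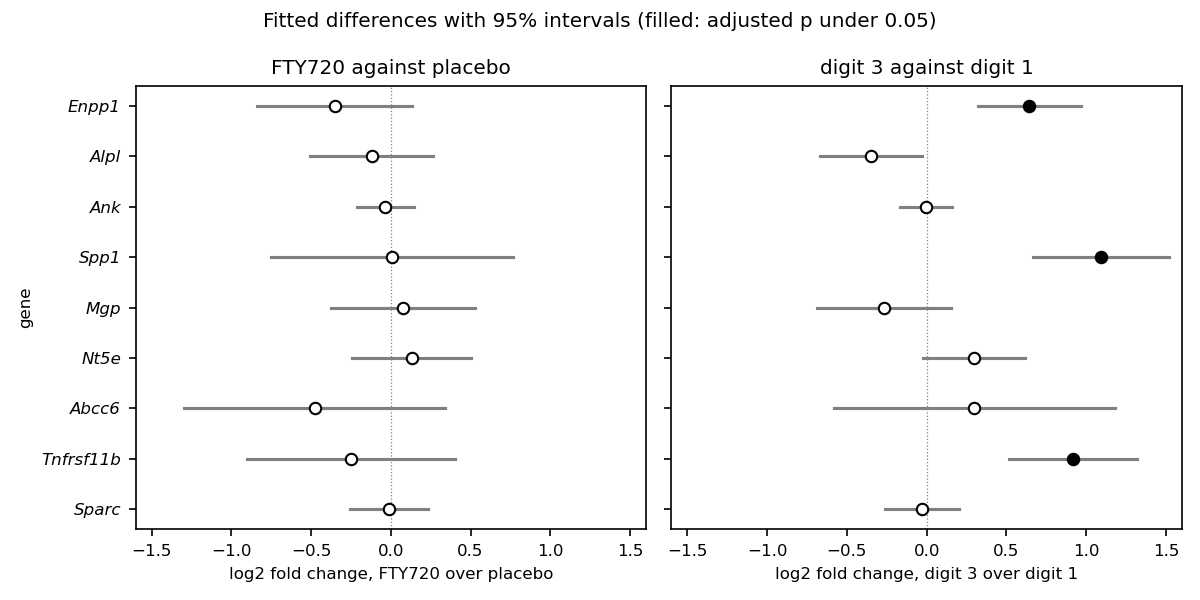
Fitted log2 fold change of each gene with its 95% interval (horizontal axis), FTY720 over placebo on the left and digit 3 over digit 1 on the right, filled where the adjusted p is under 0.05. No gene is filled for FTY720, and Enpp1, Spp1 and Tnfrsf11b are filled for the digit, at 0.64, 1.09 and 0.92.

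Per length, the deposited FPKM values put the 4 highest members apart from the rest. In digit 3 the mean level was 136 FPKM for Sparc, 61.5 for Ank, 37.0 for Spp1 and 12.3 for Mgp, each range apart from the next. Below them Alpl (1.67 FPKM), Tnfrsf11b (1.31), Nt5e (1.08) and Enpp1 (0.852) overlapped each with the next, and Abcc6 came last at 0.205 FPKM, apart from Enpp1. In digit 1 Spp1 was at 18.0 FPKM and overlapped Mgp at 14.8 FPKM, and Nt5e (0.892 FPKM) stood above Tnfrsf11b (0.685 FPKM), although these 2 overlapped.

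**Figure D4:**
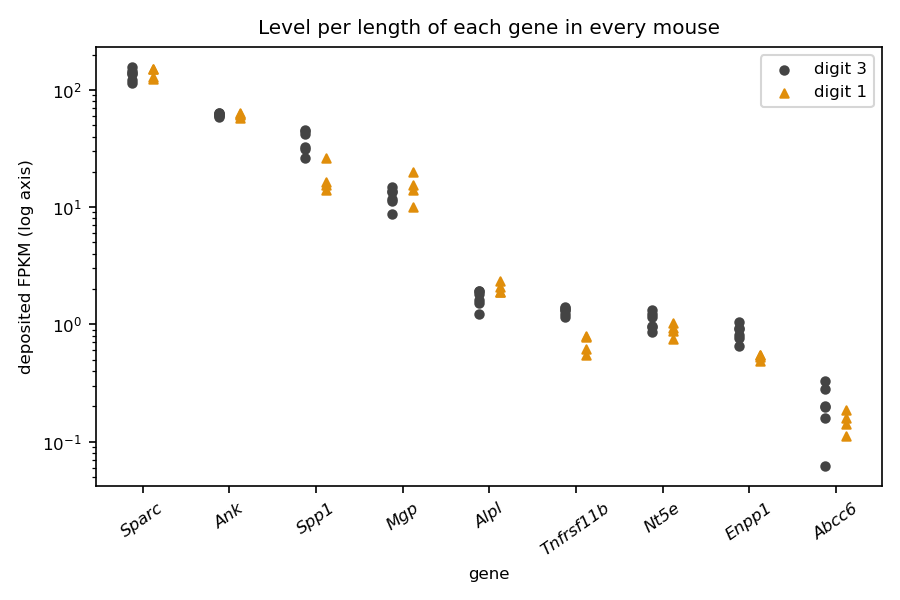
Deposited FPKM of each gene in every mouse on a log axis, with dark circles for digit 3 and orange triangles for digit 1, in the order of the digit 3 means. Sparc, Ank, Spp1 and Mgp lie above 8.68 FPKM in every mouse and the other 5 genes at or below 2.36 FPKM.

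The other genes of each pathway, and the marker lists after them, are given as counts past the test for digit 3 against digit 1, beside the 28.4% of all tested genes that passed there (13.9% higher and 14.4% lower). Of 21 genes of pyrophosphate and adenosine metabolism, all were tested: Enpp1 rose and 3 fell, namely the ATP-degrading ectoenzyme Entpd2 (log2 difference -0.49), the adenosine receptor gene Adora2a (-0.57) and the ATP release channel gene Panx1 (-0.61). The remaining 17 did not pass, and with 21 genes a difference in called share from the 28.4% of all genes was not tested. The list's median was -0.02 against -0.01 over all genes. Adora2a is also a striatal marker, and the 9 striatal markers, led by Ppp1r1b and Penk with Pde10a, had 7 lower in digit 3. The striatal list summed to between 755 and 1042 CPM in digit 3 and between 991 and 1239 CPM in digit 1.

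Of 21 mineral-binding matrix genes, 14 were tested, and the bone and tooth proteins Ibsp, Dspp, Mepe, Bglap and Bglap2 and the plasma proteins Ahsg and Fetub were too low. Spp1 was the only one to rise, while Smoc1 (-0.37) and Smoc2 (-0.57), relatives of Sparc, fell. Of 8 genes of the RANKL system, 6 were tested and 3 rose: Tnfrsf11b, Tnfsf10 (1.03), which encodes the second ligand of osteoprotegerin, TRAIL, and Traf6 (0.50), the adaptor below the RANKL receptor. RANKL itself (Tnfsf11) was too low to test, and its receptor gene Tnfrsf11a stood at 4.71 CPM in digit 3 and 4.77 CPM in digit 1.

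Among 9 receptor genes for osteopontin, Itga4 (0.79) was the only one past the test. Among 7 transcription factors of osteoblasts, Msx2 rose (1.71), from 0.531 ± 0.225 CPM (SD, n = 4) in digit 1 to 1.82 ± 0.273 CPM (SD, n = 6) in digit 3, and Msx1 (-0.65) and Dlx5 (-0.91) fell. None of these lists had a gene past the adjusted threshold for FTY720 in edgeR's test. At an unadjusted p under 0.05 there was 1, Dmp1 (log2 difference -0.40), which encodes an acidic bone matrix protein.

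**Figure D5:**
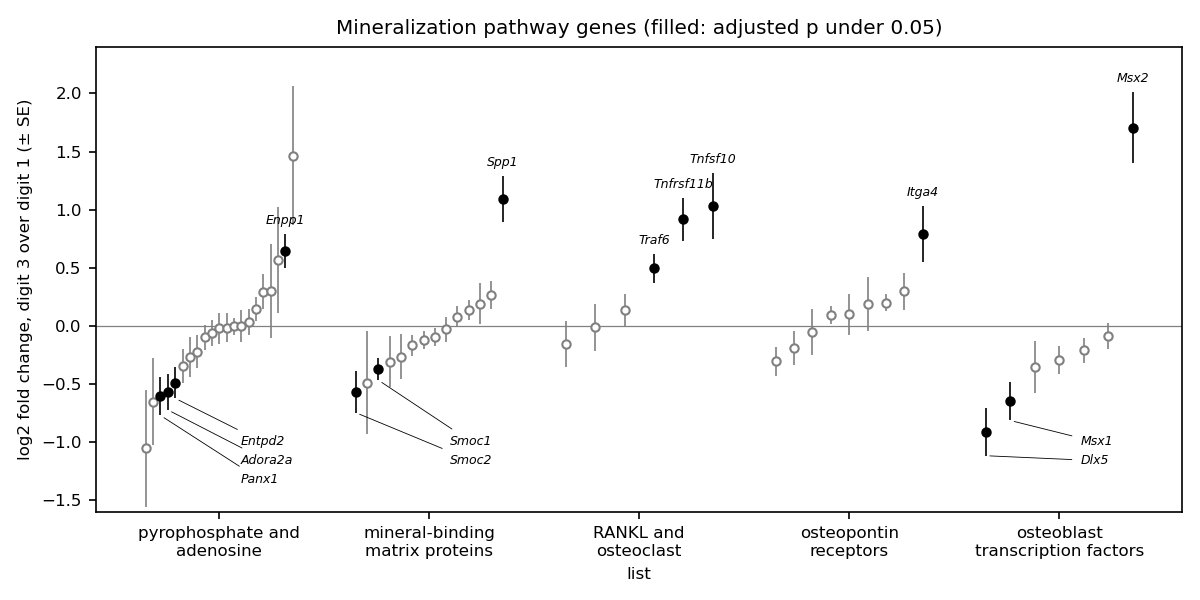
Log2 fold change of digit 3 over digit 1 with its standard error for every tested gene of 5 pathway lists, ordered by value within each list, filled and named where the adjusted p is under 0.05. Most points lie near 0, and Msx2 at 1.71 and Spp1 at 1.09 are the highest of those filled.

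Lists of the cells that make several members were set beside them. Of 12 leptomeningeal fibroblast markers, led in level by Dcn, Col1a2 and Fmod, only Ogn passed, higher in digit 3, and their sum lay between 111 and 149 CPM in digit 3 and between 120 and 146 CPM in digit 1. Of the 9 mural cell markers tested, led by Rgs5, Vtn and Pdgfrb, Kcnj8 and Vtn were lower in digit 3, with sums of 177 to 224 and 186 to 219 CPM. Both pairs of ranges overlapped between the digits, and the part of these cells in the members' values was not tested. Of the other lists, whose called shares are to be read against the same 28.4%, 1 of 10 choroid plexus markers was lower in digit 3, 2 of 9 astrocyte markers were higher and 1 lower, and 2 of 10 oligodendrocyte markers were higher and 1 lower. Of 4 T cell markers tested 1 was lower, and of 4 blood markers tested 0 passed by edgeR, with 1 at an unadjusted p under 0.05.

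The genes whose pattern was most like each member, by Pearson's r over the 10 mice after the mean of each digit was subtracted, searched over 14051 protein-coding genes, are given as a description only, since the best of so many reaches a high value. For Spp1 they were Atg10 (0.978), Golt1b (0.977) and Psmd14 (0.972). For Enpp1 they were Cacng4 (0.962), Prex1 (0.936) and Klhdc7b (0.932), and for Tnfrsf11b they were Dnase1l1 (0.918), Fam221a (0.912) and Ccdc65 (0.898). For Nt5e they were Hif3a (0.922), Ddx20 (0.919) and Gabrr2 (0.917). No member was among the 3 nearest genes of another member, where the values ran from 0.892 for Emp2 beside Abcc6 to 0.981 for Rem2 beside Mgp.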

How the data were processed

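Brain RNA of 10 mice was sequenced. The deposited tables hold whole-number counts per gene and mouse without normalization, FPKM values that the authors made from them, and the gene length in bases. Per the submitters' processing notes the tools were CASAVA 1.8, fastp, HISAT2 2.0.5, featureCounts 1.5.0-p3 and DESeq2 1.20.0, on GRCm38. The annotation release and strand setting are not given in the sources used here, so genes that overlap another are uncertain. Every column was matched to a mouse by its name.

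Genes were kept by filterByExpr with treatment as group and TMM factors were applied. The quasi-likelihood test of edgeR 4.0.16 under R 4.3.3 was run for treatment with no covariate, for the digit with treatment as a covariate, and for their interaction. P-values were adjusted by Benjamini-Hochberg over all 17665 genes with a threshold of 0.05. Two-sided exact permutation tests used mean log2 CPM (prior count 2) over 210 splits. Standard errors are the log2 fold change over the square root of F. Replicates are separate mice, and replicate numbers do not pair them.

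The members and lists were chosen with earlier results of these data known. Named genes were all members, Slc20a2, up to 8 pathway genes per list past the threshold (unadjusted for FTY720), the 3 most abundant markers of a list and any at 0, and the 3 genes most like each member. Tnfrsf11a, the genes too low to test, and the marker genes Ogn, Kdr and Kcnj8 fall outside this rule and were chosen after their values were seen. All 14 marker lists were summed. Some genes that this rule names are not reported here. The alternatives were DESeq2 1.42.0, RLE scaling, no filter, at least 10 counts in every mouse, limma 3.58.1 on log2(FPKM + 0.1) and log2(FPKM + 1), added or removed covariates, subsets of mice and each mouse left out. On simulated data edgeR recovered 85 of 100 genes changed by a log2 value of 1 for FTY720 with 12 false calls among 17402 genes, and 76 of 100 for the digit with 8 among 17382. The simulated FTY720 data held no difference between the digits, and their spread came from a fit with the digit as a term. The real FTY720 fit leaves the digit out, so 85 of 100 does not give the share it would recover in these mice. RefSeq promoter windows are of GRCm38.p6. Counting error is largest for Abcc6, which had the fewest counts of the members.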

Additional observations from a re-analysis of the deposited data

How the results depend on the processing

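Of 351 values of single genes under the alternatives, 313 kept their direction and side of the threshold. That count includes the FTY720 values, none of which came near the threshold in any alternative. Their lowest adjusted p was 0.569 by edgeR, for Alpl with the digit as a term. It also includes the 11 Nt5e values described below, so it is no measure of stability. Spp1 and Tnfrsf11b were past the threshold for the digit in all 19 alternatives run, with log2 differences of 0.99 to 1.29 and 0.45 to 1.04, the lowest Tnfrsf11b value with FPKM + 1. Enpp1 (0.26 to 0.73) missed it in the FTY720 mice alone (adjusted p = 0.0719 by edgeR) and without P1-623 (adjusted p = 0.0619 by edgeR). The members past it numbered 2 or 3.

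The count of genes at an unadjusted p under 0.05 for FTY720, 461, was 1117 with no filter, 2256 with a term for the digit and 1283 when only digit 3 mice were used. Leaving out 1 mouse moved it between 281 (without P3-907) and 984 (without P3-904), with 300 genes without P3-612. The count of members was 1 in the digit 3 mice alone (Nt5e), and 0 to 1 with a mouse left out. For the digit, 5010 genes became 3106 in the FTY720 mice alone, 2908 without F3-609 and between 2593 (without P1-623) and 6046 (without P3-612). With treatment left out of the digit fit the count was 3694.

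Reversals were confined to log2 differences that passed no test. For FTY720, Spp1 was -0.0522 with FPKM + 0.1 and -0.0482 with FPKM + 1, Sparc 0.00382 with no filter, and in the digit 3 mice Mgp was -0.0380, Tnfrsf11b 0.0407 and Sparc 0.0646. Leaving out 1 mouse gave -0.188 to 0.226 for Spp1, -0.0722 to 0.156 for Mgp, -0.0636 to 0.0405 for Sparc and -0.217 to 0.00507 for Alpl. For the digit, Ank was 0.000949 with DESeq2, 0.00109 with RLE, 0.0145 with at least 10 counts, 0.000412 and 0.000401 on FPKM and 0.00412 without treatment, and Abcc6 was -0.0850 and Sparc 0.0481 in the FTY720 mice. Leaving out 1 mouse gave -0.0306 to 0.0248 for Ank, -0.0891 to 0.590 for Abcc6 and -0.102 to 0.0430 for Sparc. The cause of these changes was not tested. The Nt5e difference between the digits in its response to FTY720 was 0.58 to 0.73 in 11 alternatives chosen after the data were seen, all of which keep the only digit 1 placebo mouse, so that the range is no sign of stability. Abcc6 was not tested in the alternative with at least 10 counts in every mouse, since F3-908 held 6 counts. No paired analysis was possible because the replicate numbers only name the mice, and only 1 number in the mouse names, 612, occurs in both treatments. With the leading digit of that number (6 or 9) as a covariate, 382 genes had an unadjusted p under 0.05 for FTY720 and 4270 an adjusted one for the digit. Only 1 placebo mouse had digit 1, and Abcc6 had few counts. Small differences may have gone undetected, and the part of depth or of group size in this was not tested.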
